A study of Mus musculus with 20 samples.

Results

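The genes of the leukaemia inhibitory factor (LIF) and STAT3 pathway, 7 in number, were followed through 10 accessible-chromatin peak lists from mouse embryonic stem cells whose only CTCF was a wild-type or a mutant transgene. They were the receptor genes Lifr and Il6st, the kinase gene Jak1, the transcription factor gene Stat3, its feedback inhibitor Socs3 and the target kinases Pim1 and Pim3. They are 7 of 21887 protein-coding genes of the RefSeq table. Every peak that overlapped 1 of these genes or the 20 kb on either side of it (mm10) was taken, which gave 159 merged regions of 222457 in the series.

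LIF binds a receptor made of LIFR and gp130, the product of Il6st. The JAK kinases bound to that receptor phosphorylate STAT3, which enters the nucleus and binds DNA as a dimer. In mouse embryonic stem cells this signal sustains self-renewal, Socs3 is switched on by it and damps the receptor, and Pim1 and Pim3 are serine/threonine kinases that lie among its targets.

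E14Tg2a cells (strain 129/Ola) and clones derived from them were grown without feeder cells in serum with LIF, CHIR99021 and the MEK inhibitor PD0325901. LIF signalling was therefore supplied to every sample, and the series holds no culture without it. All 20 samples received 500 µM indole-3-acetic acid, which triggers the degron on endogenous CTCF, and 1 µg/ml doxycycline, which switches on the Ctcf transgene, for 2 days. The 10 genotypes are a wild-type transgene (WT) and the single-residue substitutions R339Q, R342C, S354F, K365T, R377C, R377H, Q418R, R448Q and H455R, with 2 replicates each in 1 modified cell line per genotype. Omni-ATAC-seq, in which a transposase cuts and tags open DNA, was run on 50000 cells per reaction. The authors pooled both replicates of a genotype in 1 peak list, so the spread between replicates could not be measured and no difference between genotypes was tested. In these bulk samples, fewer cells with an open site and less accessibility per cell cannot be told apart.

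The lists held 121032 (R339Q) to 171719 (WT) peaks, and the 7 windows held 91 (R339Q) to 130 (R377C) of them, with 127 in WT. Background coverage, a measure of depth read from the steps of the values, was lowest in K365T at 3.49 and highest in WT at 5.96. WT thus has the longest list and the highest background coverage, it is the reference of all 9 comparisons, and its part in the results was not tested. The label of the cells was checked on start peaks, meaning a peak within 1 kb of a start site of the gene. All 7 stem cell markers examined (Pou5f1, Sox2, Nanog, Esrrb, Zfp42, Klf4 and Tfcp2l1) had a start peak in all 10 lists. Of the fibroblast markers, 3 had a start site in the table, and Col1a2 and Twist2 also had a start peak in all 10 lists, whereas Prrx1 had a start peak in 1 list. Their part in the results was not tested. In 5 Mb around each gene, the share of a list's peaks lay between -0.10 and 0.17 (log2) of the median of the other lists, so none of 70 gene and list pairs passed 0.2.

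The start sites of 4 of the genes are shown because they span the range of accessibility. Those of Stat3, Socs3 and Pim1 hold motif matches described here, and that of Jak1 holds none. The matches at Pim3 and at the second Pim1 start lie in sequences not shown. Each sequence runs 5′ to 3′ on the gene's strand from 250 bases before to 50 bases after the start site and comes from RefSeq (GRCm38.p6). Jak1 had the strongest start peak of the 7 genes, at chr4:101265174-101265473 on the minus strand. Stat3 lies at chr11:100939491-100939790, minus strand, and Socs3 at chr11:117969317-117969616, minus strand. Pim1 had the weakest start peak in WT and is shown at its first start site, chr17:29490535-29490834, plus strand. Capitals mark matches to TTCNNNGAA, the palindrome that STAT dimers bind, or to AGNGGGC, a part of the CTCF core motif, on either strand.
Jak1: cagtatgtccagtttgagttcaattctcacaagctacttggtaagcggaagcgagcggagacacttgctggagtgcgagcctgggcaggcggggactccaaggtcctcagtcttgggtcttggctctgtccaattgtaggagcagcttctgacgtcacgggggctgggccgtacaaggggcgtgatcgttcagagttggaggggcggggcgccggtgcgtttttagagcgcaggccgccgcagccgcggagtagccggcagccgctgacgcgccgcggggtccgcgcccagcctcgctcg
Stat3: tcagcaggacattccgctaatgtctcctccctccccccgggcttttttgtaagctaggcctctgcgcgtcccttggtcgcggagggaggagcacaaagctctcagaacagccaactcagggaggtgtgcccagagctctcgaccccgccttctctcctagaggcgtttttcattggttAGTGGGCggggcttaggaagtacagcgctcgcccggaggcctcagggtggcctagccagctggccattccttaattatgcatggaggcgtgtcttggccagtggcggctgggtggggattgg
Socs3: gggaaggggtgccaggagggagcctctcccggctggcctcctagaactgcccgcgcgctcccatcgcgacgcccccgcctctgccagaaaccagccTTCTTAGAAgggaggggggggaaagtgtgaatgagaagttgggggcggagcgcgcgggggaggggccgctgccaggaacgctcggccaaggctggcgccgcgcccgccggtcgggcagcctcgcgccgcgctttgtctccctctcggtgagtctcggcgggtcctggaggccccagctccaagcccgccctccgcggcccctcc
Pim1: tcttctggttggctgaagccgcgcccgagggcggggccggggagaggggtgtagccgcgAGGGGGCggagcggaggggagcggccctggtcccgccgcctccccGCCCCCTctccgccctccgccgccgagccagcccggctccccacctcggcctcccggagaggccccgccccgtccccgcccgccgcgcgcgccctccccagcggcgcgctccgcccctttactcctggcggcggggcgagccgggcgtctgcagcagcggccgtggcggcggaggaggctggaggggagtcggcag

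Socs3 alone among the 9 start sites of the 7 genes carried the STAT palindrome. The match reads TTCTTAGAA and begins 154 bases before the Socs3 start. This palindrome occurred in 8.30% of 32851 mouse promoters of the same length. The CTCF core part occurred at 4 of the 9 sites, against 25.8% of all promoters. It began 72 bases before the Stat3 start, 191 and 146 bases before the first Pim1 start, 137 bases before the second Pim1 start and 34 bases before the Pim3 start. No match of either kind was found in these windows at Jak1, Il6st or the 2 Lifr start sites. The matches did not overlap. All 9 start sites lay under a peak in all 10 lists, with and without a match.

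The starts of all 7 genes were accessible in every genotype, at very different strengths. To compare peaks within a list, each was given its percentile by the deposited fold enrichment, from 0 for the weakest to 100 for the strongest. Over the series, 93.8% of 12033 protein-coding genes with a start peak in WT had one in all 9 mutants, so 7 of 7 is close to the background. The median WT start peak of the 11284 genes that kept it stood at 87.4, which places Jak1 and Stat3 above the typical gene start and the other 5 genes below it.

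Jak1, which encodes the kinase, ranked highest in every list. Its start peak stood at 99.1 in WT, which was its lowest value, and reached 99.6 in R342C, with a median of 99.5 over the 10 lists. Stat3, the transcription factor itself, followed with 94.9 in WT, a range from 93.9 (Q418R) to 96.6 (R377H) and a median of 95.5. The ranges of Jak1, Stat3 and Il6st did not overlap one another. The Stat3 start peak lies within the lncRNA gene Gm46295 and within 1 kb of its start, so that signal of the 2 genes cannot be told apart.

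The receptor genes had weaker starts. Il6st stood at 79.5 in WT, with 72.8 in K365T as its lowest and 84.5 in R342C as its highest value. Lifr stood at 64.8 in WT, 49.7 in R339Q and 71.9 in R377H. This was the widest range of the 7 genes, at 22.2 points, and 18.7% of all genes with a start peak in all lists had one at least as wide. It rests on a change of start site in R377H: at the first site alone the range was 16.5 points, narrower than that of Socs3 (19.4) and Pim1 (18.0).

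The R377H value of Lifr came from a different start site than the rest. At the first Lifr start site the percentiles were 64.8 in WT, 49.7 in R339Q, 64.5 in R342C, 62.3 in S354F, 59.4 in K365T, 58.5 in R377C, 66.2 in R377H, 63.5 in Q418R, 64.6 in R448Q and 65.7 in H455R. At the second they were 39.9 in WT, 42.3 in R339Q, 47.0 in R342C, 41.5 in S354F, 36.6 in K365T, 36.4 in R377C, 71.9 in R377H, 25.5 in Q418R, 51.6 in R448Q and 16.1 in H455R. These are the values of the region over each site. Another region within 1 kb of the second site (7141128 to 7141642) was stronger only in Q418R, at 31.2, and H455R, at 23.8. Within its list the second site outranked the first in R377H and in no other list. Ranked over the regions found in all 10 lists, the scale used for comparison with WT, R377H was highest at the second site with 51.1, followed by R448Q with 27.3, while at the first site Q418R was highest with 44.6, and R448Q (42.7) and R377H (42.5) came next. The genes whose start peaks were most like Lifr over the 10 lists, out of 11284, were Elovl6, Avpr1a and Rcc1l, with mean absolute differences of 2.06, 2.33 and 2.56 percentile points.

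The STAT3 target genes Socs3, Pim3 and Pim1 had moderate to weak start peaks. Socs3, whose product blocks the kinases at the receptor, stood at 64.7 in WT, 72.3 in R339Q, 74.8 in R342C, 72.1 in S354F, 66.5 in K365T, 77.6 in R377C, 75.5 in R377H, 59.4 in Q418R, 75.0 in R448Q and 78.8 in H455R. Pim3 ranged from 52.6 (Q418R) to 65.6 (H455R), with 53.8 in WT. Pim1 ranged from 35.6 (K365T) to 53.7 (Q418R), with 40.2 in WT. The Pim1 start region overlaps the lncRNA gene Gm26885 within 1 kb of its start, and the Pim3 start region overlaps the gene Gm33049, so signal of these genes cannot be told apart either. From Il6st down, neighbours in this order overlapped: Socs3 ranked above Lifr in 8 of 10 lists, Lifr above Pim3 in 8 and Pim3 above Pim1 in 9.

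**Figure D1:**
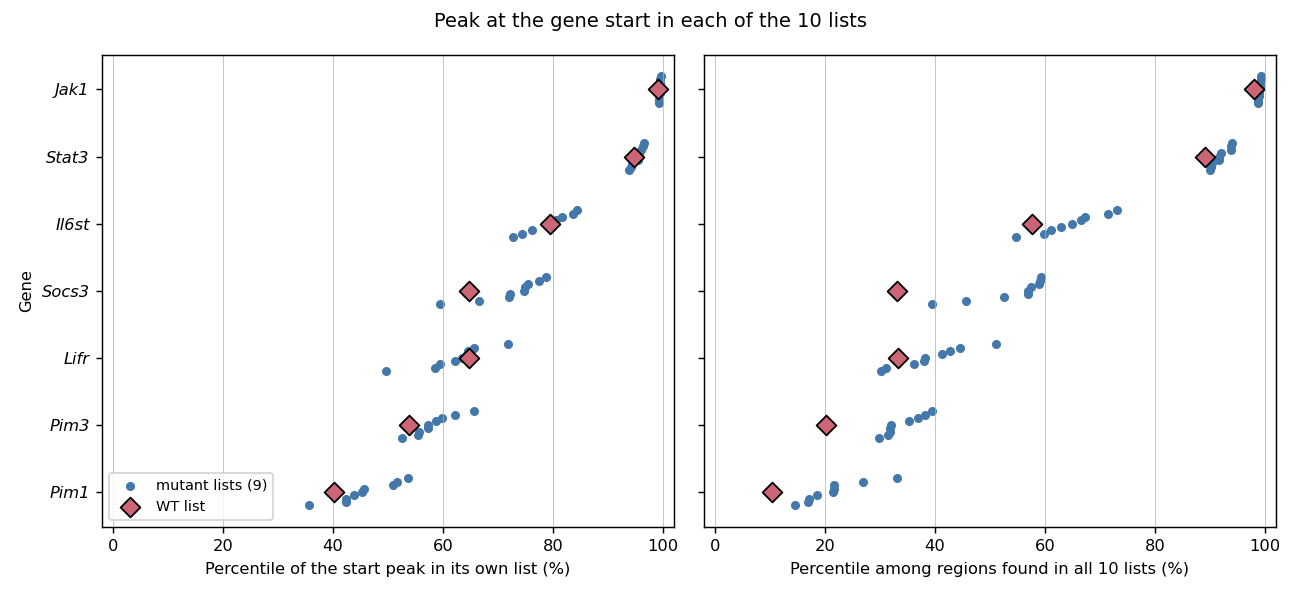
Percentile of the start peak of each gene in its own list (left, 0 to 100) and among the regions found in all 10 lists (right, 0 to 100), with the WT list as a diamond and the 9 mutant lists as points. Jak1 and Stat3 lie at the top in every list, and in the right panel the WT diamond lies below all mutant points for Jak1, Stat3, Socs3, Pim3 and Pim1.

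Percentiles in lists of different lengths show no change between genotypes, so differences from WT were read over the 81151 regions found in all 10 lists, ranked anew from 0 to 100 in each list. On this scale the start peak of Socs3 stood at 33.1 in WT, its lowest value, and at 39.4 (Q418R), 45.7 (K365T), 52.6 (S354F), 56.9 (R377H), 57.0 (R342C), 57.5 (R448Q), 58.9 (R377C), 59.1 (R339Q) and 59.3 (H455R) in the mutants. Pim3 stood at 20.1 in WT and between 29.8 and 39.4 in the mutants, and Pim1 at 10.3 in WT and between 14.5 and 33.1 in the mutants. The start peaks of 5 genes (Jak1, Stat3, Socs3, Pim1 and Pim3) thus ranked above WT in all 9 mutant lists, against 26.5% of 11284 start peaks over the series. At Jak1 (98.1 in WT) the mutants lay only 0.75 to 1.30 points higher, and at Stat3 (89.2 in WT) 0.90 to 4.87 points.

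Il6st ranked above WT in 8 mutants, and Lifr in 7. Start peaks in general ranked higher in the mutants: 69.7% of all gene and mutant pairs lay above WT, by a median of 2.45 points, beside 60 of the 63 pairs of the 7 genes. The median grew to 9.13 points for the 628 start peaks within 5 points of Socs3 in WT, of which 34.6% lay above WT in all 9 mutants. For start peaks within 5 points of Pim1, Pim3, Stat3 and Jak1 this share was 34.8%, 34.2%, 21.1% and 12.4%. All 9 comparisons share the WT list, so a low WT value lifts every one of them.

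In the 7 windows the 159 regions were unevenly kept. Of these, 64 (40.3%) had a peak in all 10 lists, against 36.5% of all regions and 37.3% of regions in the windows of all protein-coding genes. By place, 9 of 12 regions within 1 kb of a start were in all lists, 19 of 36 upstream, 16 of 40 downstream and 20 of 71 inside the genes. The shares of all regions at like places were not computed, so these counts are not shown to be particular to the 7 genes. Socs3 kept 11 of 16 regions in all lists and had no region inside the gene away from its start. Stat3 kept 5 of 22, Il6st 6 of 22, Jak1 7 of 24, Pim1 9 of 20, Pim3 6 of 10 and Lifr 20 of 45.

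Regions lay most densely at the target gene Pim1 and most sparsely at the kinase gene Jak1. Per 10 kb of window there were 4.41 regions at Pim1 and 3.62 at Socs3, 3.06 at Lifr, 2.66 at Il6st, 2.37 at Stat3, 2.30 at Pim3 and 1.57 at Jak1. The peaks nearest the window edges show what the 20 kb limit leaves out. The 14 WT peaks just inside an edge had percentiles from 1.11 to 88.9 with a median of 39.4. The 14 just outside had percentiles from 7.01 to 98.7 with a median of 77.8 and began 1.06 to 46.8 kb beyond the edge.

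**Figure D2:**
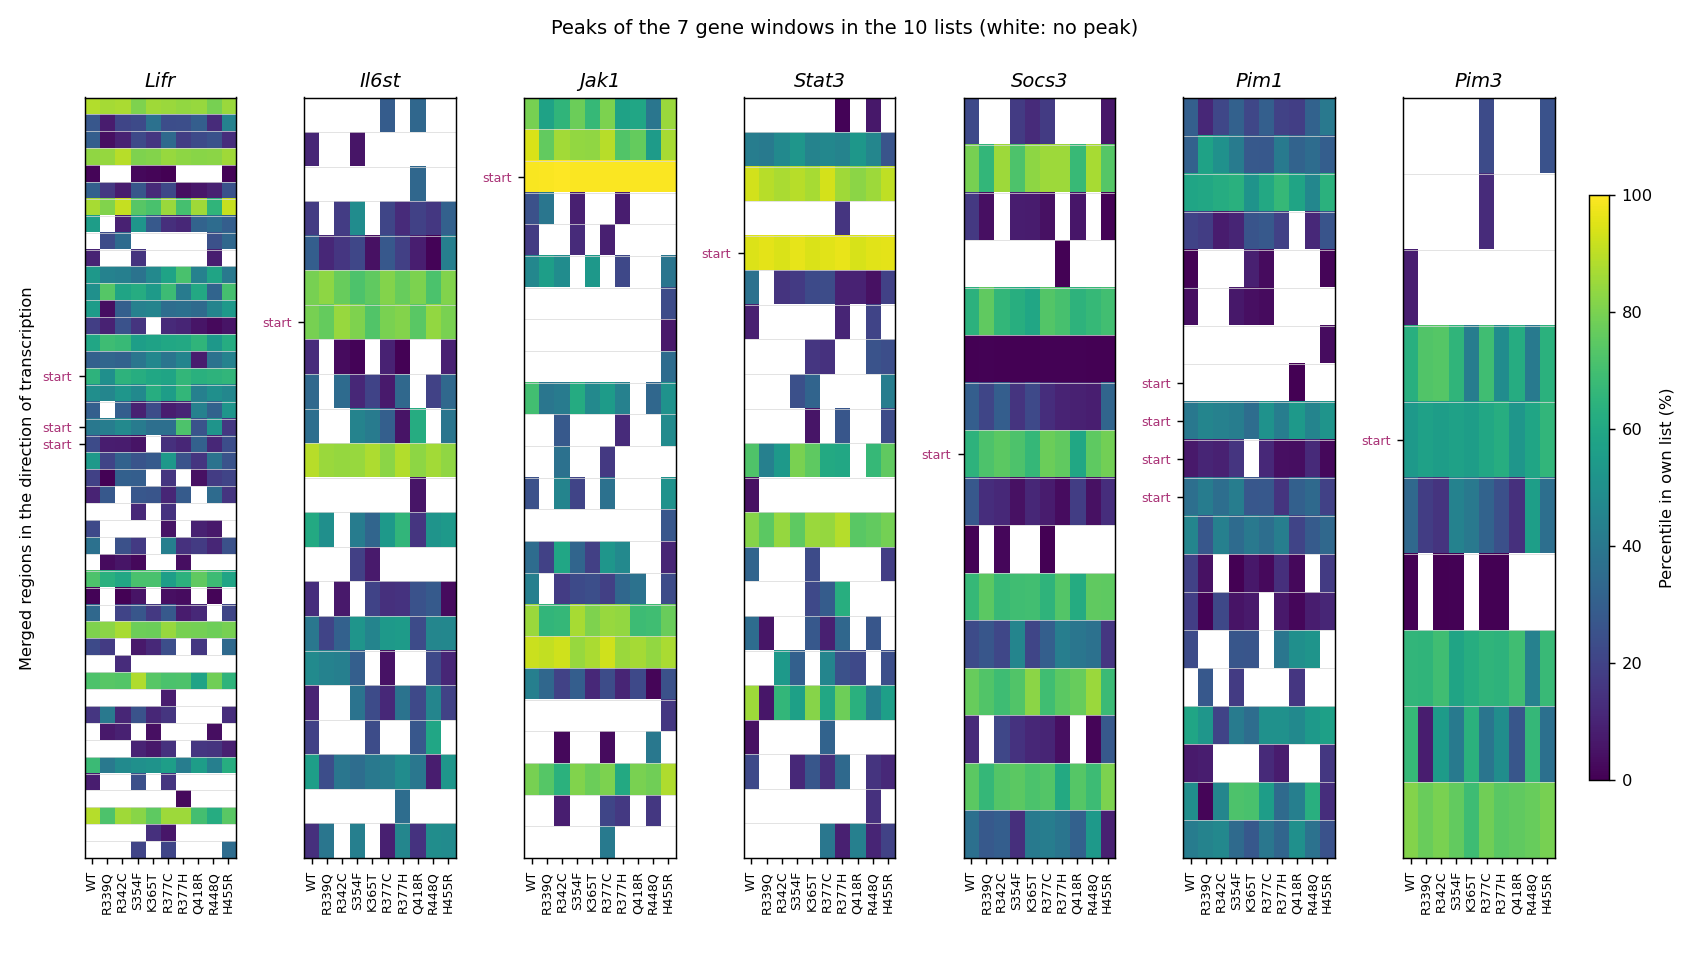
Each row is a merged region of a gene window, in the direction of transcription, each column is a peak list, and colour gives the percentile of the region's strongest peak in that list (0 to 100, white for no peak), with regions within 1 kb of a start site marked. The bright rows of Jak1 and Stat3 at their starts run through all 10 lists.

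The strongest WT peak of a window was the start peak only for Jak1 and Stat3. For Il6st it was a peak inside the gene (112486263 to 112487033 on chromosome 13), 22.6 kb from the start, at the 89.2 percentile. For Lifr it lay 7.46 kb downstream of the gene and 0.418 kb from Egflam (7204950 to 7205702 on chromosome 15) at 88.9. For Socs3 it lay 16.1 kb upstream at the start of the neighbouring gene Pgs1 (117986484 to 117987260 on chromosome 11) at 79.4. Signal there belongs to the window of Socs3 but cannot be assigned to Socs3. For Pim3 and Pim1 it lay downstream, 15.6 kb and 12.8 kb from the gene, at 81.5 and 59.0. All 7 of these peaks were found in all 9 mutant lists.

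WT peaks of the 7 windows were missing from a mutant list 229 times in 1143 peak and mutant pairs (20.04%), where missing means that no peak of the list overlapped by 1 bp or more. Over the series 48.5% of 171719 WT peaks were found in all 9 mutants, and in the windows 67 of 127 were. In the stronger 50% of the WT list the series gave 79.5%, and the windows 43 of 47.

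By mutant, R339Q, the shortest list, lacked 38 of 127 WT peaks, or 29.9% (exact 95% interval 22.1 to 38.7), against 35.1% over the series. Q418R lacked 36, or 28.3% (20.7 to 37.0), against 30.8%. R342C lacked 29, or 22.8% (15.9 to 31.1), against 26.1%. These 3 lists were also the only ones to lack any of the 47 WT peaks in the stronger 50%, with 1 missing from R339Q, 1 from R342C and 2 from Q418R. The series shares of that stronger 50% by mutant were not computed, so these lists are not shown to be set apart. K365T and R448Q lacked 28 each, or 22.0% (15.2 to 30.3), against 28.3% and 27.7%. R377H lacked 24, or 18.9% (12.5 to 26.8), against 26.0%. H455R lacked 19, or 15.0% (9.25 to 22.4), against 19.3%.

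The fewest were missing from S354F, 14 or 11.0% (6.16 to 17.8), against 24.3%, and from R377C, 13 or 10.2% (5.56 to 16.9), against 20.9%. For S354F and R377C the interval of the windows lay below the share over the series, and for the other 7 mutants it held that share. With each mutant list limited to its 121032 strongest peaks, the shares missing were 27.6% in S354F and 38.6% in R377C. All WT peaks gave 32.3% and 33.1%, so R377C then lay above the series and not below it. R342C, R377H, Q418R, R448Q and H455R also lay above the series then, with H455R at 41.7% against 34.0%. R339Q and K365T stayed below it, as S354F did. The intervals are Clopper-Pearson intervals over peaks, cover counting error only and take the peaks as independent, which neighbouring peaks are not.

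Peaks of like strength elsewhere would have given more missing pairs. At the missing rates of all WT peaks of like fold, in 20 bins, the 127 peaks would have had 381 missing pairs instead of 229. At the rates of peaks of like width the number was 271, and with fold and width together, in coarser bins, it was 331. The size of the gap therefore depends on what is held equal, and the comparison by width was chosen after the first result was seen. List length was not held equal in these numbers.

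The gap was uneven over the genes. Lifr had 50 missing pairs of 333 against 107 at equal fold and 90.1 at equal fold and width, and Socs3 17 of 135 against 45.5 and 31.1. Pim1 had 37 of 171 against 75.4 and 59.6, Il6st 42 of 162 against 60.6 and 58.8, and Pim3 14 of 90 against 25.9 and 18.8. Jak1 had 29 of 135 against 31.7 and 34.9. Stat3 was the exception, with 40 of 117 missing, the highest share (34.2%), against 35.3 and 37.5. At equal width alone the numbers were 72.7 for Lifr, 47.9 for Il6st, 40.6 for Jak1, 32.9 for Stat3, 23.0 for Socs3, 42.1 for Pim1 and 11.8 for Pim3. The gap was then wider at Jak1 and narrower at Lifr, Il6st, Socs3 and Pim1, and Pim3 joined Stat3 in having more missing pairs than like peaks.

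**Figure D3:**
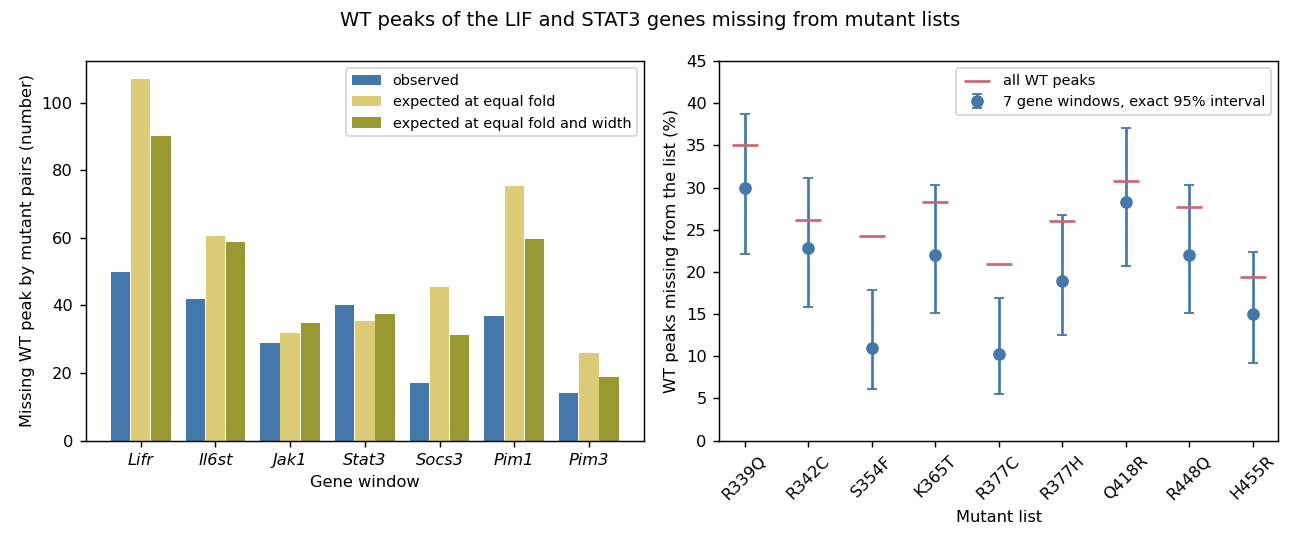
Left, the number of WT peak and mutant pairs missing in each gene window, observed and at the missing rates of all WT peaks of like fold or of like fold and width. Right, the percent of the 127 WT peaks missing from each mutant list with its exact 95% interval, beside the percent over all WT peaks as a dash. The observed bar is lower than both others at every gene but Stat3, and the interval lies below the dash in S354F and R377C.

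Only 4 WT peaks of the stronger 50% were missing from any mutant, all inside a gene and each from 1 list. Q418R lacked 1 in Jak1 (101213536 to 101213891 on chromosome 4; WT percentile 69.7) and 1 in Stat3 (100912410 to 100912726 on chromosome 11; 72.4), the 2 strongest of the 4. R342C lacked 1 in Il6st (112495715 to 112496031 on chromosome 13; 60.7). R339Q lacked 1 in Lifr (7092362 to 7092788 on chromosome 15; 55.6). The S354F, K365T, R377C, R377H, R448Q and H455R lists held all 4. The annotation used gives no exons, so whether these sites are intronic was not determined.

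Of the 127 WT peaks of the windows, 2 were missing from all 9 mutants, and both were weak. They were 1 inside Stat3 (100911007 to 100911290) at percentile 4.64 and 1 upstream of Pim3 (88853403 to 88853724 on chromosome 15) at 8.59. The latter lies 0.717 kb from the gene Gm33049 and right beside a region (88853737 to 88855259) that had a peak in all 10 lists. The share of all WT peaks missing from all 9 mutants was not computed, so this count is not shown to be particular to the windows.

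Peaks without a WT peak were counted in the same windows. Of the 91 R339Q peaks in the windows 5 had no WT peak (5.49%, against 7.14% of the list), of the 106 R342C peaks 10 (9.43% against 9.77%) and of the 121 S354F peaks 9 (7.44% against 8.82%). K365T had 10 of 108 (9.26% against 8.94%), Q418R 8 of 102 (7.84% against 7.97%) and R377H 13 of 114 (11.4% against 12.1%). R377C had 18 of 130 (13.8% against 10.8%) and H455R 17 of 126 (13.5% against 13.1%). R448Q had 9 of 106, or 8.49%, where its list had 14.8%. These shares are near the background, with R448Q the farthest from it.

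Of these 99 peaks, 9 lay in merged regions that also held a WT peak, and the other 90 made 40 regions without a WT peak, 10 at Lifr, 10 at Jak1, 9 at Stat3, 5 at Il6st, 3 at Pim1, 2 at Pim3 and 1 at Socs3. Most were found in few lists, 18 of them in 1 mutant, and none in 7 or more. The 3 found in 5 or more mutants were 2 at Stat3 and 1 at Lifr. The like shares over all regions without a WT peak were not computed, so these counts are not shown to be particular to the 7 genes. The first Stat3 region (100891647 to 100892077) lies inside the gene and was present in R342C, S354F, R377C, R377H, Q418R and H455R, at percentiles from 22.0 to 53.6. The second (100876410 to 100877079) lies 9.73 kb downstream inside the neighbouring gene Stat5a and was present in R377C, R377H, Q418R, R448Q and H455R. The Lifr region (7193068 to 7193689) lies near the far end of the gene and was present in S354F, K365T, R377C, Q418R, R448Q and H455R.

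For the 64 regions in all lists, a difference of more than 10 percentile points from WT was counted as lower or higher. Higher calls outnumbered lower calls at the 7 genes, 134 (23.3%) against 79 (13.7%) of 576 region and mutant pairs. The series had 20.3% and 19.8%. A region below 10 in WT cannot be counted as lower, and Lifr, Il6st, Socs3, Pim1 and Pim3 all had such regions. They were not set apart, and the shares were not matched on WT rank.

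In R339Q, 11 regions were lower and 21 higher, beside 22.1% and 23.8% of all shared regions. In R342C, 8 were lower and 17 higher (19.9% and 20.2% of all), and in S354F 7 and 12 (18.0% and 18.5%). In K365T, 8 were lower and 15 higher (18.9% and 19.5%), and in Q418R 8 and 16 (19.0% and 19.3%). Lower regions were under the background share in every mutant list, these 5 and those that follow.

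In R377C, 5 were lower and 11 higher (17.9% and 17.6%), and in R377H 9 and 13 (21.2% and 21.2%). In H455R, 9 were lower and 12 higher (17.6% and 17.9%). In R448Q, 14 were lower and 17 higher (23.2% and 24.5%). The share of higher regions was the largest in R339Q at 32.8% and the smallest in R377C at 17.2%.

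The direction differed by gene. At Socs3, 36 of 99 pairs were higher and 2 lower, and at Pim1 20 of 81 were higher and 4 lower. Pim3 had 19 of 54 higher and 10 lower, Il6st 9 of 54 higher and 3 lower, Lifr 39 of 180 higher and 27 lower, and Stat3 8 of 45 higher and 10 lower. Jak1 was the reverse, with 23 of 63 pairs lower and 3 higher. The WT ranks of these regions differed too, from 0.014 to 57.5 at Socs3, 5.78 to 25.6 at Pim1 and 11.9 to 98.1 at Jak1. A low WT rank leaves little room for lower calls, and these gene counts were not set beside regions of like WT rank. No region was called the same way in all 9 mutants, as for 1.30% (lower) and 1.29% (higher) of all shared regions, and 11 of the 64 (17.2%) were called in none, against 18.3% of all.

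The largest difference of the 576 was at Stat3. A region near the 3′ end of the gene (100888651 to 100889623 on chromosome 11), 50.4 kb from the start and 3.48 kb from Stat5a, stood at 69.3 in WT, 2.04 in R339Q, 43.6 in R342C, 30.9 in S354F, 69.1 in K365T, 31.9 in R377C, 60.8 in R377H, 44.8 in Q418R, 19.8 in R448Q and 26.4 in H455R. It was lower than WT by over 10 points in 7 mutants, with K365T close to WT and R377H 8.50 points under it. The R339Q difference of -67.3 points was matched or passed by 0.073% of shared regions in that list. Of the 8108 shared regions within 5 points of it in WT, 12.4% were lower in as many mutants. The peak remained called in every list.

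Upstream of Jak1, a pair of regions took lower ranks in several of the same lists. The nearer one (101280078 to 101280499 on chromosome 4), 14.8 kb from the gene, stood at 87.7 in WT, 64.2 in R339Q, 75.9 in R342C, 71.8 in S354F, 71.6 in K365T, 80.4 in R377C, 52.6 in R377H, 62.9 in Q418R, 30.8 in R448Q and 74.4 in H455R. All mutants lay below WT there, 8 of them by over 10 points, as for 4.04% of regions of like WT rank. The farther one (101283758 to 101284297), 18.5 kb from the gene, stood at 57.8 in WT, 39.7 in R339Q, 42.6 in R342C, 61.6 in S354F, 46.4 in K365T, 63.6 in R377C, 31.4 in R377H, 39.0 in Q418R, 17.1 in R448Q and 70.7 in H455R. The farther region was lower by over 10 points in 6 mutants, as for 19.0% of regions of like WT rank, and higher in 1. R448Q was the lowest list at both regions and R377H the next. The start peak of Jak1 itself lay between 98.1 and 99.4 in all lists.

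Around Socs3 the higher ranks were not limited to the start. A region 4.95 kb upstream (117975286 to 117976825 on chromosome 11) stood at 32.4 in WT, 63.8 in R339Q, 43.8 in R342C, 38.5 in S354F, 36.1 in K365T, 51.3 in R377C, 49.5 in R377H, 46.2 in Q418R, 45.7 in R448Q and 43.9 in H455R. All mutants lay above WT there, 7 by over 10 points, as for 11.5% of regions of like WT rank. At the Socs3 start 8 mutants passed 10 points, as for 6.59% of regions of like WT rank. A region 2.21 kb downstream (117963149 to 117963868) stood at 36.1 in WT and between 38.6 and 63.0 in the mutants. It was higher by over 10 points in 6 mutants, as for 16.7% of regions of like WT rank.

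At Lifr the largest difference was at a region inside the gene (7103067 to 7103397 on chromosome 15), which stood at 17.1 in WT and 60.8 in R339Q. Its other values ran from 12.5 in R448Q to 45.1 in H455R, and 7 mutants were higher by over 10 points, as for 13.2% of regions of like WT rank. A region closer to the far end of Lifr (7194154 to 7194636) went the other way, with 38.4 in WT and 17.1 to 35.0 in the mutants, 7 of them lower by over 10 points, as for 8.13% of regions of like WT rank. Regions of the receptor gene therefore differed from WT in both directions. At Pim3, a region downstream (88875616 to 88876851) stood at 36.2 in WT and 2.96 in R339Q and was lower by over 10 points in 6 mutants, as for 12.6% of regions of like WT rank. The Pim3 start was higher by over 10 points in 8, as for 7.16% of such regions.

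**Figure D4:**
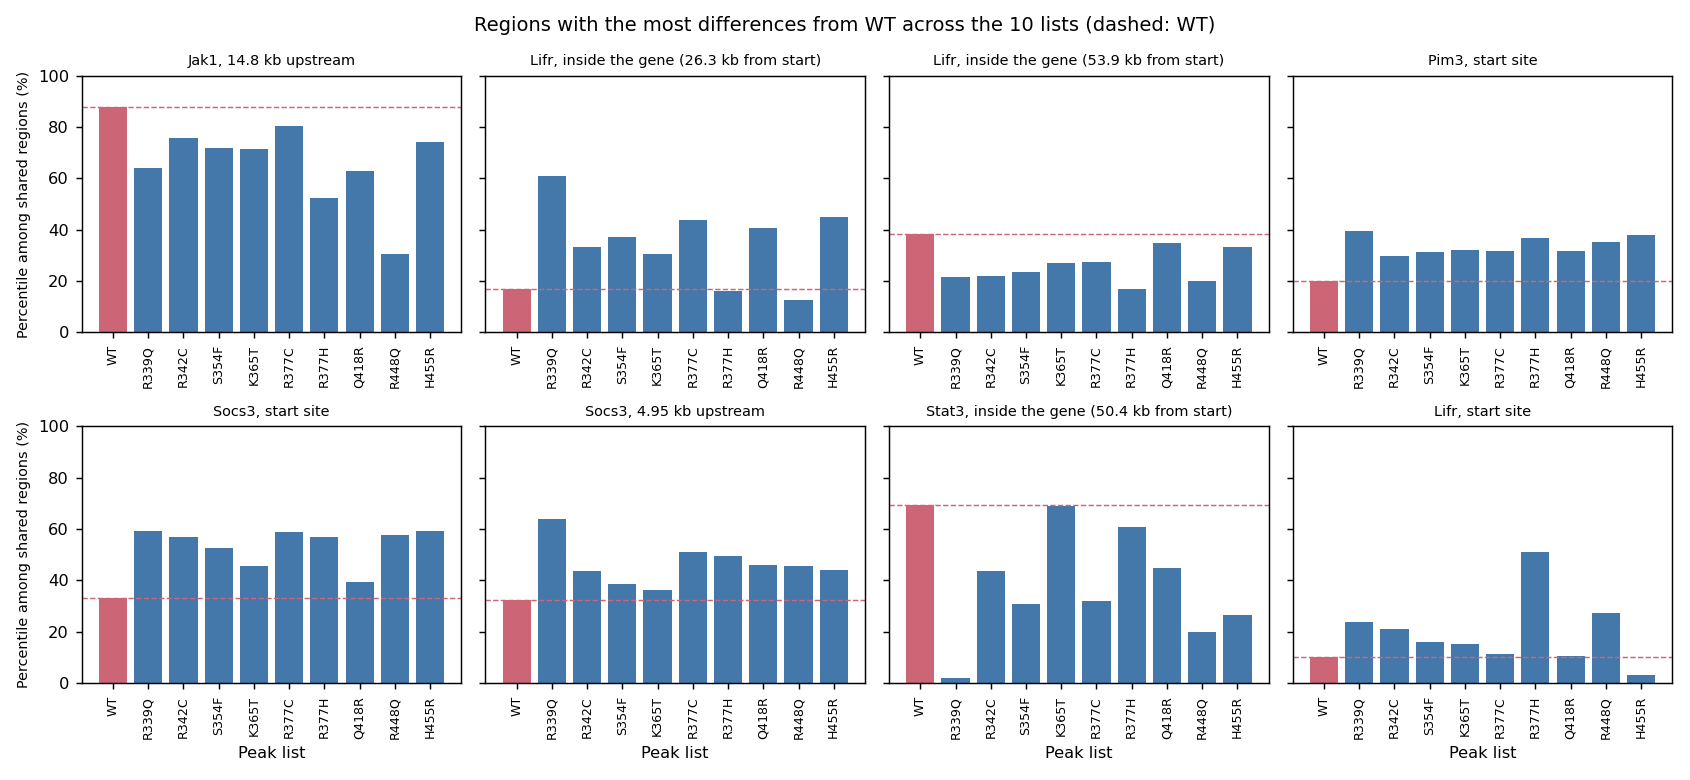
Percentile among the 81151 regions found in all 10 lists (0 to 100) for the 7 regions that differed from WT by over 10 points, in 1 direction, in 7 or more mutants, and for the second Lifr start site, which has the largest single difference among the rest. The 7 come from 64 shared regions of the windows. Over the series, 7.07% of shared regions were lower in 7 or more mutants and 6.69% were higher, so 7 of 64 is not above the background. The WT list is in red with its value as a dashed line; the Stat3 region is lowest in R339Q at 2.04, the Jak1 region is lowest in R448Q at 30.8, and both Socs3 regions lie above WT in all mutants.

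Of 34 further genes of the pathway, 26 had a start site in the table, and 25 of these had a start peak in WT. The 8 genes without a start site in the table were not analysed here. In 24 of the 25 the start peak was found in all 9 mutants. This is close to the background, 93.8% of 12033 protein-coding genes with a WT start peak. Of 225 gene and mutant pairs 3 were missing, and the median WT percentile was 74.0. The exception was Cntfr, a receptor subunit for ciliary neurotrophic factor, with a weak WT start peak at 24.8 that was missing from R339Q, S354F and R377C. Pramel7, which is induced by STAT3 in mouse embryonic stem cells, had no start peak in any list.

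By role, 6 of 7 ligand and receptor genes, 5 of 5 kinase and transcription factor genes, 6 of 6 inhibitor genes and 7 of 7 target genes with a WT start peak kept it in all mutants. At these group sizes, no role is shown to differ from the 93.8% over the series. The ligand gene Lif stood at 11.3 in WT and between 1.49 and 19.3 over the 10 lists. Tyk2, a JAK family kinase, ranged from 92.9 to 97.9, and Stat5a from 94.3 to 97.6. Klf4, a transcription factor gene downstream of STAT3, stood at 29.9 in WT with a range from 17.1 to 61.7, and Pim2, the third gene of the PIM family, at 95.7 with a range from 93.4 to 97.7. The 3 PIM genes thus differed among themselves, with Pim2 far above Pim3 and Pim1 in every list.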

How the data were processed

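Per the submitters' processing notes, Trim Galore, Bowtie2, MACS2 and deepTools were used with build mm10. The sources used here do not give versions, duplicate handling, an insertion-site shift, the threshold for calling, or separate cultures for the replicates. Each genotype has a deposited list pooled over 2 replicates. Its value per peak was taken, from the values themselves, to be MACS2 fold enrichment, a ratio set by the authors and used here only for ranks. Read totals were not used.

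Lists were read and compared with Python 3.11.15, pandas 2.3.3, NumPy 2.4.6 and SciPy 1.17.1. Peaks of all lists that overlapped by at least 1 bp were merged into regions, with the strongest peak of a list standing for the region. A start peak is the strongest peak within 1 kb of a start site in the RefSeq promoter table (GRCm38.p6), whose strand was used in place of both gene ends. A region inside a gene is outside that distance. Intervals are exact at 95%. Background coverage is 1 divided by the step of the fold values, minus 1. Overlap, merging and ranking were tested on simulated data. Coordinates are 1-based. A search for CTCF motifs in peaks was not run without a genome sequence. In the WT and K365T lists the 2 library codes named in the peaks are not consecutive, as they are in the other 8 lists.

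Sites were named by rule: the strongest WT peak of each window, WT peaks in the stronger 50% missing from a mutant, WT peaks missing from all, regions absent from WT in 5 or more mutants, and the 5 largest differences over shared regions. Other sites of the text (the second upstream Jak1 region, the Socs3 regions beside its start, the Lifr region at 7194154, the downstream Pim3 region) were chosen after their values were seen. Alternatives covered the overlap rule, list length, peak strength, window size, ranking and the size of a counted difference. The genes, the gene lists and the comparisons were chosen with earlier results of these data known.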

Additional observations from a re-analysis of the deposited data

How the results depend on the processing

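No paired analysis was possible because each deposited list pools both replicates, and leaving out a replicate was not possible for the same reason. Of 100 recomputed values 64 moved by less than their interval or 1.5 times. With every mutant list limited to its 121032 strongest peaks, the missing share became 35.4% in R342C, 27.6% in S354F, 34.6% in K365T and 38.6% in R377C. It became 40.2% in R377H, 36.2% in Q418R, 40.2% in R448Q and 41.7% in H455R. Each of these but S354F then lay above R339Q at 29.9%. Over all WT peaks the share then ran from 32.3% in S354F to 36.7% in R448Q. Among the stronger 50% of WT peaks the missing share was 2.13% in R339Q, 2.13% in R342C, 4.26% in Q418R and 0 in S354F, K365T, R377C, R377H, R448Q and H455R. Among the stronger 50% of each mutant list, the share without a WT peak was 2.44% in R342C, 2.44% in R377H and 0 in R339Q, S354F, K365T, R377C, Q418R, R448Q and H455R. Shares over the series by mutant were not computed for these stronger peaks. Leaving out K365T or R339Q and keeping only regions with 1 peak in every list were alternatives that kept every count within 1.5 times, and those on K365T, on single peaks and on differences without R339Q were chosen after seeing the data. Regions in all lists numbered 40 with windows of 5 kb and 108 with 50 kb, instead of 64. With a call at 5 points, 124 pairs were lower and 210 higher, instead of 79 and 134. Ranked over shared regions only, the median start percentiles of all 7 genes moved, to between 19.97 (Pim1) and 99.0 (Jak1). The part of background coverage (3.49 to 5.96) in the missing peaks was not tested.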
